A study of Vitis vinifera with 6 samples.

Results

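The genes described here are the 3 grapevine genes annotated as NCED, the 9-cis-epoxycarotenoid dioxygenases of abscisic acid synthesis, in leaves of Vitis vinifera cv Shiraz that overexpress the transcription factor VviNAC33. They were chosen by gene identifier, as the probes named VIT_19s0093g00550, VIT_10s0003g03750 and VIT_05s0051g00670, and each of the 3 has 1 probe among the 34369 gene probes of the array. The comparison is between 2 sets of 3 arrays each. The OXNAC33 set holds stable transgenic plants in which the constitutive CaMV 35S promoter drives VviNAC33, so that the transgene is not restricted to any leaf cell type, and its 3 arrays stand for 3 independent lines. The control set holds plants transformed with the vector carrying eGFP. The labels say neither which line an OXNAC33 replicate number stands for nor which control plant gave each control array. All plants were regenerated from callus of 1 Shiraz clone, and RNA came from pooled young leaves. The labels place their collection at the start of the visible phenotype, whereas the study's text speaks of a time before it, so the stage is not settled. Plant age is not given in the sources used here.

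Abscisic acid is a plant hormone made from carotenoids in the plastid. NCED enzymes cut an epoxycarotenoid to give xanthoxin, a step widely regarded as rate-limiting, and xanthoxin is then turned in the cytosol into abscisic aldehyde and abscisic acid. In leaves NCED transcripts are known to respond to drought and, in several species, to be enriched in vascular tissue, and the hormone acts through PYR/PYL receptors, PP2C phosphatases and SnRK2 kinases to close stomata and to promote senescence.

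Neither of the 2 NCED genes that could be tested passed the threshold, and the third was too dim for a test. VIT_19s0093g00550 had a higher mean in OXNAC33 leaves by a factor of 1.76, but this rested on 2 of the 3 lines, since the third line lay among the controls. VIT_10s0003g03750 varied widely inside both sets, and its mean was 1.39-fold higher in OXNAC33 leaves. VIT_05s0051g00670 stood near the detection limit on all arrays except that of OXNAC33 replicate 1. The count of NCED genes with an adjusted p under 0.05 was 0 of 2 (limma, Benjamini-Hochberg over 23907 probes), and it was also 0 at an unadjusted p under 0.05. Of all probes tested, 5.02% passed the adjusted threshold, 1.69% higher and 3.33% lower in OXNAC33 leaves, and 27.3% had an unadjusted p under 0.05.

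Levels are given as log2 intensity relative to the 75th percentile of the same array, so that 0 is the 75th percentile. That percentile was between 773 and 1303 intensity units on the OXNAC33 arrays and between 818 and 1036 on the control arrays. The share of gene probes well above background ranged from 69.4% to 74.9% over the arrays, and 0 probes were saturated. OXNAC33 pairs correlated across probes at r of 0.945 to 0.955 and control pairs at 0.967 to 0.978, over 22369 probes. The probe of VviNAC33 itself read -0.54, -3.89 and -0.998 in OXNAC33 replicates 1, 2 and 3, against -5.22, -4.14 and -4.01 in the controls. Replicate 2 therefore stood only slightly above the highest control for the overexpressed gene, and the change of 2.65 did not pass (limma, adjusted p = 0.116). That order depended on the scaling. With normexp background correction replicate 2, at -2.98, was below all 3 controls, and with quantile scaling it was just below control 3. The paper chose its 3 lines for the highest VviNAC33 expression by qPCR. The arrays were scanned in 2 sessions, the first holding OXNAC33 replicates 1 and 2 with control 1, and the second holding OXNAC33 replicate 3 with controls 2 and 3. Each session thus holds both sets, and values inside each session are given below with the pooled ones.

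**Figure D1:**
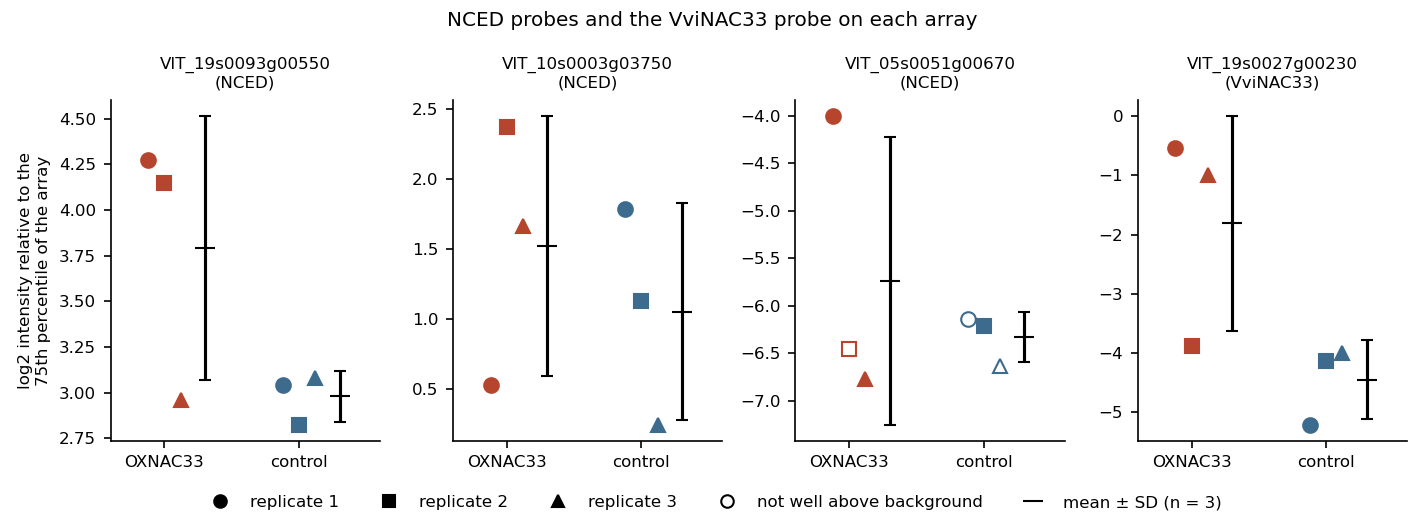
Log2 intensity relative to the 75th percentile of each array for the 3 NCED probes and for VviNAC33, with OXNAC33 arrays on the left and control arrays on the right of each panel (points, 1 per array; bars, mean ± SD of 3 arrays; open symbols, spots not well above background). In VIT_19s0093g00550 OXNAC33 replicates 1 and 2 lie above all controls and replicate 3 among them, and in VIT_10s0003g03750 the 2 sets are interleaved.

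VIT_19s0093g00550 was well above background on all 6 arrays. Its processed intensity was 14926, 17385 and 10151 in OXNAC33 replicates 1, 2 and 3, against 7494, 5781 and 8741 in controls 1, 2 and 3. After scaling, the log2 values were 4.27, 4.15 and 2.96 in the OXNAC33 lines, against 3.04, 2.82 and 3.08 in the controls. Replicates 1 and 2 were thus above every control, whereas replicate 3 was above control 2 and below controls 1 and 3. The OXNAC33 arrays spanned a 2.48-fold range and the control arrays a 1.19-fold range.

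The means of VIT_19s0093g00550 were 3.79 ± 0.72 in OXNAC33 leaves and 2.98 ± 0.14 in control leaves (SD, n = 3 each). The change was 0.81 with a standard error of 0.37 and a 95% interval of -0.07 to 1.70, equal to a fold change between 0.951 and 3.25 (limma, adjusted p = 0.214). The exact two-sided permutation test over the 6 arrays gave p = 0.3, where the smallest value that 3 arrays against 3 allow is 0.1. In bulk leaf RNA, a different number of cells that express a gene and a different amount of its RNA per cell cannot be told apart. A smaller p was found for 31% of the probes tested. The SD among the OXNAC33 lines was exceeded by 18.9% of probes, and that among controls by 76.5%, so that the gene was even among controls relative to most probes and uneven among the lines.

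The change of VIT_19s0093g00550 differed between the scan sessions, being 1.17 in the first and 0.012 in the second. The single control of the first session, at 3.04, lay between the 2 controls of the second, at 2.82 and 3.08. Line and session cannot be told apart among the OXNAC33 arrays, since the lines with the high values were both scanned in the first. Without OXNAC33 replicate 3 the change was 1.23 (limma, adjusted p = 0.101). Without replicate 2, the line in which the VviNAC33 probe was low, it was 0.64 (limma, adjusted p = 0.369).

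The overlap of the sets in VIT_19s0093g00550 depended on the scaling. With each array centred on its median, the lowest OXNAC33 value was 0.11 above the highest control, and the change was 0.94 (exact permutation p = 0.1). With quantile scaling, the 75th percentile of detected probes, spike-in scaling or normexp background correction, the lowest OXNAC33 value was below the highest control by 0.06 to 0.17. Median scaling also moved the median change of all tested probes, to 0.11 from -0.01, and spike-in scaling moved it to 0.18. The adjusted p of this gene was between 0.131 and 0.336 over the limma fits to all 6 arrays with another scaling, filter, block or variance model.

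VIT_10s0003g03750, the second NCED gene, was also well above background on all 6 arrays. Its processed intensity was 1114, 5091 and 4143 in OXNAC33 replicates 1, 2 and 3, against 3150, 1785 and 1223 in controls 1, 2 and 3. The scaled log2 values were 0.53, 2.37 and 1.67 in the OXNAC33 lines, against 1.79, 1.13 and 0.24 in the controls. Only replicate 2 was above every control, and replicate 1 was below controls 1 and 2. The values spanned 3.60-fold among the OXNAC33 lines and 2.93-fold among the controls.

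The means of VIT_10s0003g03750 were 1.52 ± 0.93 in OXNAC33 leaves and 1.05 ± 0.78 in control leaves (SD, n = 3 each). The change was 0.47 with a standard error of 0.57 and a 95% interval of -0.89 to 1.84 (limma, adjusted p = 0.636). The exact two-sided permutation test gave p = 0.6. The interval on the fold scale was 0.539 to 3.57, so that it spans both lower and higher levels at this number of arrays. The SD among OXNAC33 lines was larger in 10.8% of probes and that among controls in 7.91%, where the median probe had an SD of 0.37 among OXNAC33 arrays and 0.25 among controls. The gene was thus among the more variable ones among the controls as well as among the OXNAC33 lines.

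Inside the scan sessions the change of VIT_10s0003g03750 was -0.34 in the first and 0.99 in the second, the opposite order to that of VIT_19s0093g00550. It was 0.05 without OXNAC33 replicate 2 and 0.07 without control 3, against 0.97 without OXNAC33 replicate 1. One array of either set therefore carried most of the difference between the means.

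**Figure D2:**
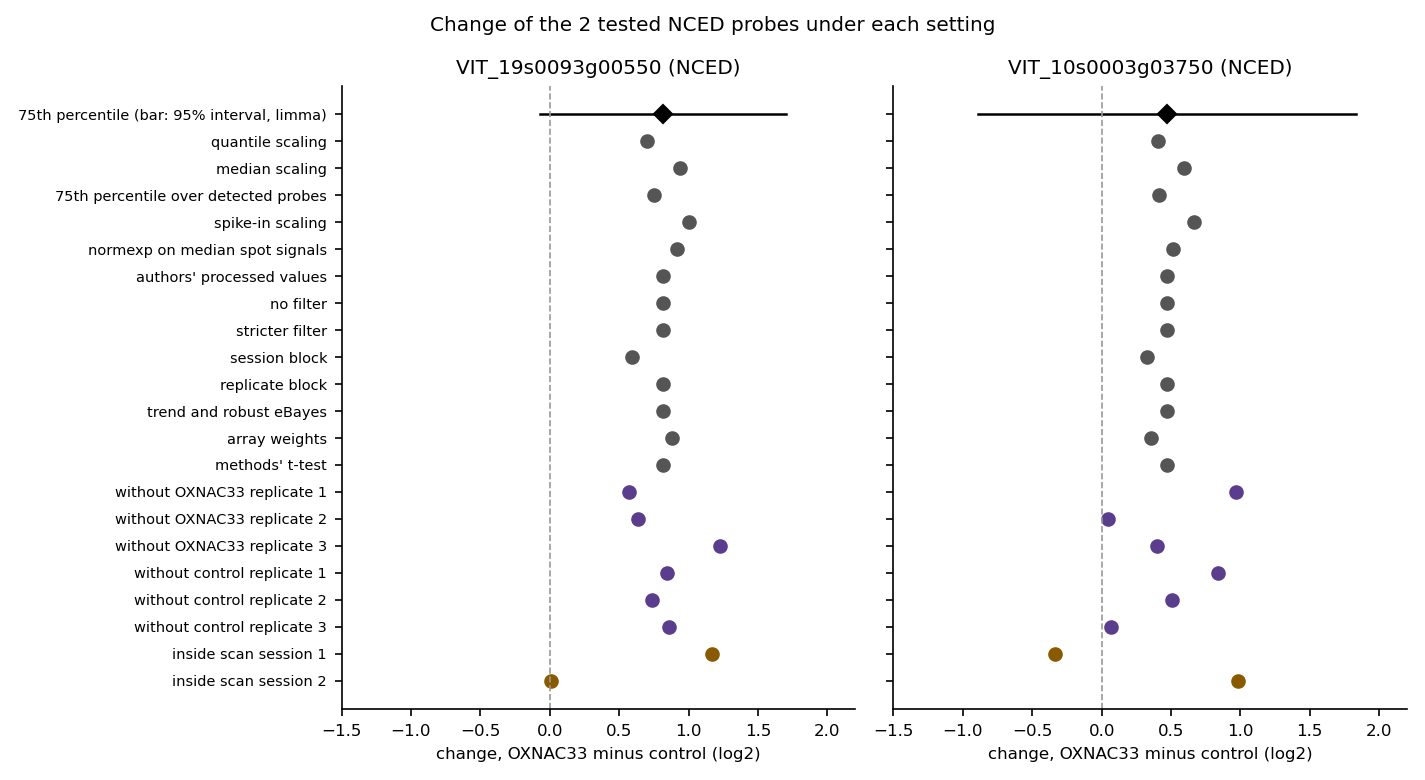
Change of VIT_19s0093g00550 and VIT_10s0003g03750, OXNAC33 minus control, on the log2 scale (x axis) under each setting (y axis), with the 95% interval of limma for the scaling used in the text (diamond), arrays left out in turn (purple) and values inside each scan session (brown). The change of VIT_19s0093g00550 is 0.012 inside the second session and that of VIT_10s0003g03750 is -0.34 inside the first, and the other settings lie above 0.

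The 2 genes did not follow each other across the arrays. Replicate 1 had the highest value of VIT_19s0093g00550 and the lowest of VIT_10s0003g03750 among the OXNAC33 lines, and control 3 likewise had the highest of VIT_19s0093g00550 and the lowest of VIT_10s0003g03750 among the controls. The within-array difference, VIT_19s0093g00550 minus VIT_10s0003g03750, from which the scaling cancels, was 3.74, 1.77 and 1.29 in OXNAC33 replicates 1, 2 and 3, against 1.25, 1.70 and 2.84 in the controls. Since different probes are compared, only its change between sets has a meaning as expression. It averaged 2.27 ± 1.30 in OXNAC33 leaves and 1.93 ± 0.82 in control leaves (SD, n = 3 each), and the changes of the 2 genes differed by 0.34 (exact two-sided permutation p = 0.6). A difference between the responses of the 2 genes was thus smaller than the spread between arrays.

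VIT_05s0051g00670, the third NCED gene, was near the detection limit. Its processed intensity was 48.4, 11.2 and 11.9 in OXNAC33 replicates 1, 2 and 3, against 12.9, 10.99 and 10.4 in controls 1, 2 and 3. The error that the scanner software gives for these spots was 5.64, 2.52 and 2.17 on the OXNAC33 arrays and 3.18, 2.23 and 2.59 on the control arrays. OXNAC33 replicate 1 was therefore the one array that stood apart, and the other 5 lay within their errors of each other.

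The spot of VIT_05s0051g00670 was called well above background on 2 of 3 OXNAC33 arrays, those of replicates 1 and 3, and on 1 of 3 control arrays, that of control 2. It failed the filter, which asks for all arrays of at least 1 set, and was not tested. On the OXNAC33 array of replicate 1 the median pixel signal of the spot was 95 over a local background of 30, whereas on the other 5 arrays it was between 47 and 54.5 over local backgrounds of 24 to 29. Negative control spots, of which there were 153 on an array, had a median of 1.84 to 3.05 in processed intensity, and their 95th percentile was 6.93 or less. The lowest probe called well above background had between 7.87 and 13.2, so that the 5 low spots sat at that limit or little above it.

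On the scaled log2 scale VIT_05s0051g00670 averaged -5.74 ± 1.52 in OXNAC33 leaves and -6.33 ± 0.27 in control leaves (SD, n = 3 each), with no test across probes. The difference of 0.59 had an exact two-sided permutation p = 0.9. It turned to -0.28 without OXNAC33 replicate 1 and to -0.50 with normexp background correction, and it was 0.92 inside the first scan session and -0.35 inside the second. A direction for this gene was not detectable at this signal. OXNAC33 replicate 1, the array with the high spot, also had the highest VIT_19s0093g00550 value and the lowest VIT_10s0003g03750 value among the lines.

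**Figure D3:**
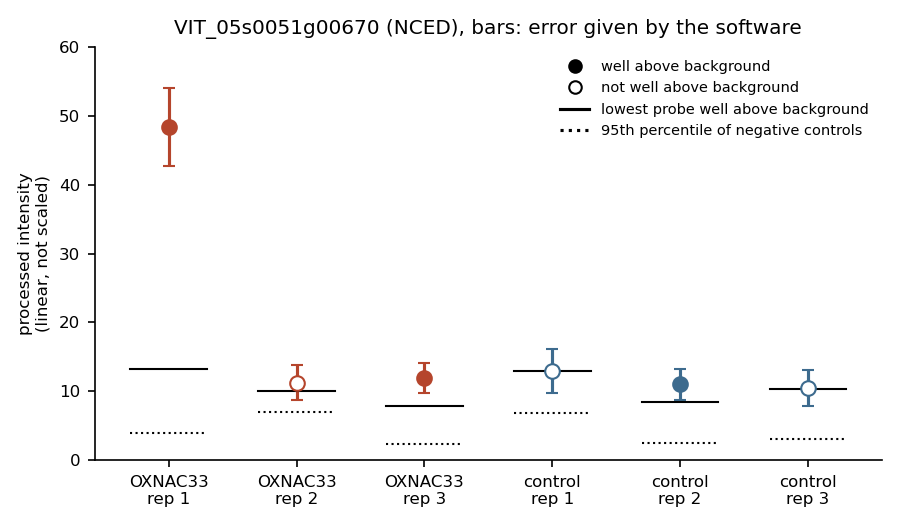
Processed intensity of VIT_05s0051g00670 on each array (linear, not scaled; points with the error given by the scanner software; OXNAC33 arrays left, control arrays right), with the lowest signal among probes well above background (solid lines) and the 95th percentile of negative control spots (dotted lines). The spot of OXNAC33 replicate 1 reads 48.4, and the other 5 lie between 10.4 and 12.9, close to the solid lines.

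Markers of leaf cell types were read beside these genes. All 9 marker probes were well above background on every array. The summed level of the 6 mesophyll genes, which encode nuclear photosynthesis proteins, was 6.86 to 8.14 in OXNAC33 leaves and 7.75 to 8.59 in control leaves. None of the 6 passed the threshold. CAB-1 had the largest change, -1.79 (limma, adjusted p = 0.144), and the others changed by -0.52 to 0.45. The paper proposes that VviNAC33 shuts down photosynthesis, so mesophyll content cannot be told apart from expression of these genes. The xylem cellulose synthase CESA8 was between -2.24 and -1.07 in OXNAC33 leaves and between -1.61 and -1.02 in control leaves. The summed level of the 2 phloem genes was 3.82 to 4.26 in OXNAC33 leaves and 2.12 to 3.097 in control leaves. These did not overlap, beside 35.5% of all probes tested. The sum follows PP2-A9, with means of 3.98 and 2.69, since the phloem lectin was far dimmer at -2.42 and -3.20. The phloem protein PP2-A9 changed by 1.29 and missed the threshold (limma, adjusted p = 0.0602). The phloem lectin changed by 0.78 and did not pass (limma, adjusted p = 0.228). The part of phloem content in the NCED values was not tested.

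Beside NCED, 35 further genes were read that the study's tables annotate with carotenoid synthesis or cleavage, or with abscisic acid synthesis, removal or response. Of these, 33 could be tested, and 5 passed the threshold, 4 higher and 1 lower, with a median change of 0.25, against -0.01 over all probes. This is 15.2% of the list, beside 5.02% of all probes. Of the 35 genes, 9 are on the list only because a table of genes changed in these same samples names them, and they are no independent evidence of a direction. Among the 25 tested genes that come from other tables, 3 passed, all higher, which is 12% of them. Those tables were themselves built around VviNAC33, from co-expression with it, binding by it or its transient overexpression. The 25 genes are therefore no neutral sample of the pathway either. The paper names CCD4b, 1 of the 3, as co-expressed with VviNAC33 and upregulated in the transient experiment. The sets did not overlap in 20 of the 33 genes, beside 35.5% of all probes (15.1% with higher and 20.4% with lower OXNAC33 values). The 20 include all 8 tested genes that only the table of these samples names, and the genes from other tables give 12 of 25. None of the 5 calls held with the scan session as a block, where 0 of all 23907 probes passed. The adjusted p of the 5 genes was then between 0.0546 and 0.0694 (limma). Their changes under that block were 3.44 for CCD4b, 1.53 for PP2CA AHG3, 1.12 for SRK2F, 1.17 for DHN2 and -2.20 for ATHB-6, close to those without it given below. With single arrays left out, all 5 calls held without OXNAC33 replicate 2, where 2554 of all probes passed. Without any other array 0 of the 5 held, where between 0 and 9 of all probes passed.

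Of the 5 carotenoid synthesis genes on the list, which are not all steps toward the substrate of NCED, 0 passed. ZEP1, the zeaxanthin epoxidase that makes the epoxycarotenoids, had the largest change among them. It read 4.53, 4.45 and 4.97 in the OXNAC33 lines, against 3.51, 4.08 and 3.69 in the controls, and its change of 0.89 missed the threshold (limma, adjusted p = 0.0799). All OXNAC33 values were above all control values, as in 15.1% of all probes tested. The other 4, phytoene synthase, the lycopene epsilon-cyclase LECY1, the carotene hydroxylase LUT1 and the neoxanthin synthase NSY1, changed by -0.25 to 0.58.

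The other carotenoid cleavage dioxygenases, relatives of NCED that cut carotenoids to scents and pigments rather than to xanthoxin, were higher in mean in 4 of 4 genes, and 1 passed. CCD4b (VIT_02s0087g00930) read 0.21, -1.48 and 0.86 in the OXNAC33 lines, against -3.51, -2.58 and -3.70 in the controls. It rose by 3.13 on the log2 scale (limma, adjusted p = 0.0469). CCD4a, CCD1.1 and CCD1.2 had changes of 2.26, 1.33 and 0.97 without passing (limma, adjusted p between 0.0549 and 0.205). In all 4 the lowest OXNAC33 array was above the highest control, as in 15.1% of all probes tested. CCD1.2 had 2 control arrays, since 1 of its spots was an outlier. In the 3 NCED genes the sets overlapped, as they did in most probes, since 35.5% of all probes tested had no overlap in either direction. Whether the dioxygenases and the NCED genes differed in response was not tested.

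Downstream of NCED, the abscisic aldehyde oxidase AAO3, whose namesake in Arabidopsis makes abscisic acid from its aldehyde, read -2.89, -3.43 and -1.83 in the OXNAC33 lines, against -4.30, -4.12 and -4.09 in the controls. Its change of 1.45 did not pass (limma, adjusted p = 0.0815) and was 0.48 with normexp. CYP707A2.1, annotated as the hydroxylase that breaks the hormone down, read -2.46, -2.58 and -4.34 in the OXNAC33 lines, against -1.90, -2.08 and -1.51 in the controls. Its change of -1.30 did not pass either (limma, adjusted p = 0.169). Both genes had sets that did not overlap, AAO3 with higher and CYP707A2.1 with lower OXNAC33 values. Of all probes tested, 15.1% and 20.4% did so in these directions.

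Among the signalling genes, the receptors PYL2 and PYL4 had changes of -0.26 and -0.50, and neither passed (limma, adjusted p = 0.616 and 0.338). PP2CA AHG3 (VIT_13s0019g02200), a phosphatase that in Arabidopsis holds the pathway off when the hormone is absent, read 3.402, 3.59 and 3.51 in the OXNAC33 lines, against 1.81, 1.89 and 2.38 in the controls. It rose by 1.47 (limma, adjusted p = 0.0361), with the OXNAC33 lines within 0.18 of each other. PP2CA AHG1, a relative of it, had a change of -1.71 with overlapping sets and did not pass (limma, adjusted p = 0.128). The spots of PP2C-6 were outliers on 2 OXNAC33 arrays, and it was not tested.

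The kinase SRK2F read 1.497, 0.97 and 1.24 in the OXNAC33 lines, against 0.28, 0.17 and -0.28 in the controls. It rose by 1.18 (limma, adjusted p = 0.0480). The homeodomain factor ATHB-6 read -3.45, -5.21 and -3.70 in the OXNAC33 lines, against -1.80, -1.95 and -1.69 in the controls, and fell by 2.30 (limma, adjusted p = 0.0470). Both are among the 9 genes named in the table of these samples. Of the 5 transcription factors tested ATHB-6 alone passed, and 1 further gene annotated as ABI3 was at background level on all 6 arrays.

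Of the 9 genes annotated as responsive to the hormone, 1 passed. The dehydrin DHN2, a protein of dehydrated tissue, read 5.67, 5.74 and 5.42 in the OXNAC33 lines, against 4.27, 4.74 and 4.31 in the controls, and rose by 1.17 (limma, adjusted p = 0.0435). LEA protein 5, of the late embryogenesis abundant proteins, read 4.34, 6.28 and 6.34 in the OXNAC33 lines, against 3.35, 3.23 and 3.24 in the controls. Its change of 2.38 missed the threshold (limma, adjusted p = 0.0549). The means of 3 of the 9 genes were higher in OXNAC33 leaves and those of 6 were lower, with a median change of -0.46. The largest fall was that of MARD1, at -0.85 (limma, adjusted p = 0.177). The lower genes include RD22 at -0.68 and the HVA22a gene VIT_17s0000g05990 at -0.54, which only the table of these samples names. With or without them, the responsive genes did not share a direction.

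**Figure D4:**
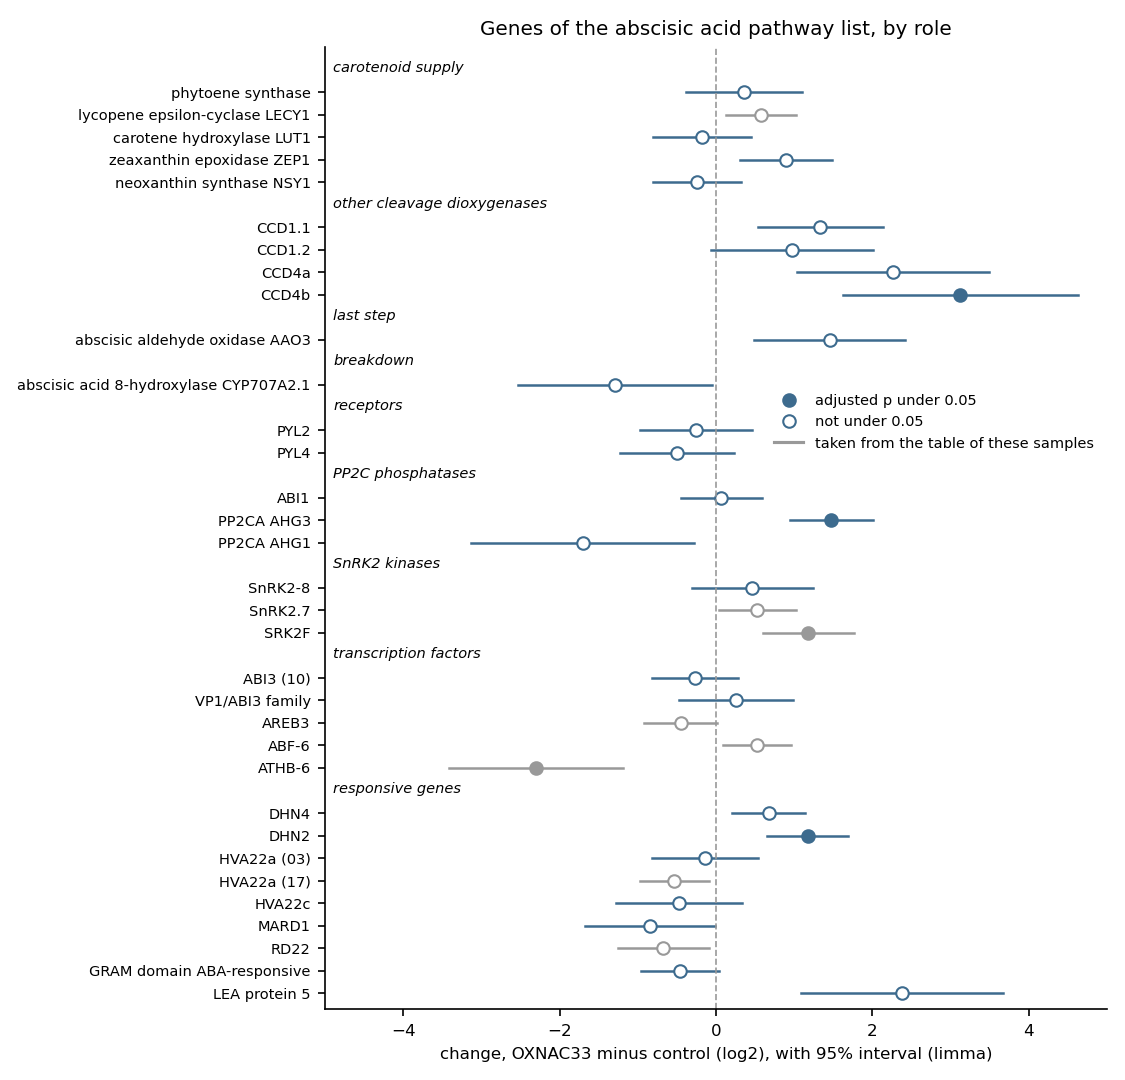
Change, OXNAC33 minus control, on the log2 scale (x axis) with the 95% interval of limma for the 33 tested genes of the abscisic acid list, grouped by role (y axis; filled points, adjusted p under 0.05; grey, genes named only by the table of these samples). The 4 other cleavage dioxygenases lie right of 0, with CCD4b at 3.13, and the responsive genes spread from -0.85 to 2.38.

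The probes whose pattern was most like that of each tested NCED gene were sought by Pearson's r over the 6 arrays, as a description only. The candidates were 2388 of the 22369 probes well above background on all 6 arrays. They were those that the study's tables of VviNAC33 co-expression, binding and transient expression annotate, so closer matches among the remaining probes were not sought. For VIT_19s0093g00550 they were a pantothenate kinase 2 gene (r = 0.997), a receptor-like protein kinase 3 gene (r = 0.966) and a wall-associated kinase gene (r = 0.944). Since they were chosen for this likeness, all 3 shared the order of 2 high OXNAC33 lines over replicate 3 and the controls, which is no separate observation. For VIT_10s0003g03750 they were a CCCH-type zinc finger gene (r = 0.972), VvbZIP03 (r = 0.962) and Peroxidase 73 (r = 0.961). All probes of an array share its depth of signal and its scan session, which enter these correlations, and 6 points cannot separate set, line and session.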

How the data were processed

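Leaf RNA of 3 OXNAC33 and 3 control samples was hybridised in 1 colour (Cy3) to a custom Agilent 60-mer grapevine array. Spot intensities are as deposited by the authors, from Agilent Feature Extraction 10.5.1.1, with background subtracted by that software. The deposited processed table also holds linear intensity, which matched the scanner signal of each array up to 1 factor, and served as an alternative. Each array's log2 intensity was taken relative to its 75th percentile, outlier spots were left out, and probes called well above background on every array of 1 set or both, with at least 2 values in each, were tested with limma 3.58.1 in R 4.3.3 (23907 of 34369 probes, two-sided, Benjamini-Hochberg, threshold 0.05). The number of arrays, 3 in each set, limits the precision. The controls are the vector plants that the study's methods describe, and p-values set each change against the spread between these samples. The OXNAC33 arrays stand for independent lines, whereas the labels do not say whether the control arrays do. The spread among controls may therefore be of another kind than that among OXNAC33 arrays.

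The NCED genes and the lists were chosen with earlier results of these data known. Named in full were the 3 NCED genes, list genes past the threshold, the largest change of each role and the 3 probes most alike. Alternatives were quantile, median, detected-probe and spike-in scaling, normexp (offset 50, on median spot signals), other filters, session and replicate blocks, trend and array weights, the methods' t-test, and each array left out. The limma script was tested on simulated data. Array identifiers matched 0 entries of the RefSeq gene table, so NCED numbers, positions and sequences are not given. The authors' tables gave gene names and roles for the lists, including a table of genes changed in these samples, and their fold changes and p-values were not used.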

Additional observations from a re-analysis of the deposited data

How the results depend on the processing

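The count of NCED genes past the threshold was 0 under every setting tried. VIT_19s0093g00550 and VIT_10s0003g03750 kept their direction in all fits to 6 arrays and with each array left out, with changes of 0.59 to 1.005 and of 0.32 to 0.66 over all 6 arrays. With 1 array left out they were 0.57 to 1.23 and 0.05 to 0.97, and that of VIT_05s0051g00670 was -0.28 to 1.11. Inside the second scan session VIT_19s0093g00550 changed by 0.012, with no test. It had an unadjusted p under 0.05 with median scaling, spike-in scaling, normexp, array weights and without OXNAC33 replicate 3, and in none of these an adjusted one. Settings that change only the test gave no value for VIT_05s0051g00670, which the main filter left out, and its probe is outside the authors' processed table. It was tested in 2 settings and passed in neither. Its change was 0.59 without a filter (limma, adjusted p = 0.773) and 0.95 without OXNAC33 replicate 2 (limma, adjusted p = 0.493).

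The count of all probes past the threshold moved much more than the NCED values. From 1200 it went to 0 with normexp, without a filter, with the session block and with the replicate block, where 5188, 6314, 6844 and 5997 probes had an unadjusted p under 0.05. It was 1806 with trend and robust variances, 2 with the methods' t-test after adjustment and 5805 before it, and 0 to 2554 with 1 array left out, the highest without OXNAC33 replicate 2. The abscisic acid list went from 5 to 0 under the same 4 settings and with the adjusted t-test, to 18 with the unadjusted one, and to 0 to 8 with 1 array left out. Higher and lower calls were 405 and 795, against 596 and 741 with median scaling, 370 and 989 with the detected-probe percentile and 657 and 389 with spike-in scaling. The causes were not tested.

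The replicate numbers are shared by the sets in the labels, but same-numbered arrays deviated together at r of 0.26, -0.22 and 0.19. Differently numbered arrays had r between -0.41 and 0.27, a range that holds these values, so the numbers were not read as pairs. With the replicate block the adjusted p of VIT_19s0093g00550 was 0.243 and that of VIT_10s0003g03750 was 0.651 (limma), with the changes at 0.81 and 0.47.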
